A study of Mus musculus with 6 samples.

Results

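Glycolysis, lactate and hypoxia-response metabolism in undifferentiated mouse embryonic stem cells (mESCs) was described here through 37 genes, listed by symbol: the glucose transporters, the enzymes from hexokinase to pyruvate kinase, the lactate dehydrogenases and lactate transporters, pyruvate dehydrogenase and its kinases, the subunits of hypoxia-inducible factor (HIF), and 5 HIF targets outside glycolysis. A named probe set was found for 36 of them, among 15364 named genes in all, and *Pdk2*, a kinase of pyruvate dehydrogenase, had none. WT and *Alkbh1-/-* mESCs of C57BL/6 background, at passage 8 and day 0 of differentiation, were each measured on 3 Affymetrix mouse whole-genome expression arrays. *Alkbh1* encodes a dioxygenase of the AlkB family. Both genotypes received no treatment and were kept undifferentiated with leukemia inhibitory factor at the oxygen level of room air, on irradiated CF-1 mouse embryonic fibroblasts, according to the labels and the study's methods. They came from littermate embryos, and the array names point to a single line of each genotype, so that line, sex chromosomes and genotype cannot be told apart. No source says that the 3 arrays of a genotype came from separate cultures, and the p-values then measure only the spread between these arrays, which may be technical.

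On these arrays a gene is represented by one or several probe sets, groups of short oligonucleotides whose brightness reflects the abundance of the transcript. The deposited comparison gives, for each of 33142 probe sets, the mean log2 value over all 6 arrays and the log2 difference *Alkbh1-/-* minus WT, from which the mean of each genotype, a standard error (SE) and a 95% confidence interval (CI) were computed. No single-array values were analysed here, so each gene is described by its genotype means, and whether single arrays overlap is not known. Where several probe sets represent a gene, the values are those of the one with the highest mean, called the brightest. Each adjusted p comes from limma's moderated test with Benjamini-Hochberg adjustment over all 33142 probe sets. A gene was called higher or lower when the adjusted p was under 0.05 and the linear fold over 1.5, a log2 difference of 0.585 in size. On the log2 scale, the median SE of a probe set was 0.11. In RNA from a culture, fewer cells of a type and less RNA per cell cannot be told apart.

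Glycolysis splits glucose into pyruvate in the cytosol. Pyruvate is then reduced to lactate and exported, or enters mitochondria, where pyruvate dehydrogenase turns it into acetyl-CoA for the citric acid cycle. Pyruvate dehydrogenase kinases phosphorylate and switch off that enzyme. HIF, a pair of an oxygen-regulated alpha subunit and ARNT, induces many glycolytic genes and some of these kinases when oxygen is low. Mouse embryonic stem cells are known for a high rate of glycolysis.

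The labels were first checked on the targeted gene. *Alkbh1*, on chromosome 12, had a mean log2 value of 9.57 in WT and 4.69 in *Alkbh1-/-* mESCs at probe set 1434660_at, a difference of -4.89 (SE 0.17, CI -5.30 to -4.48, adjusted p = 2.99e-05). Its other probe set, 1438681_at, had means of 6.91 and 5.11, a difference of -1.79 (adjusted p = 0.000287). Which part of the gene was deleted was not looked at here. All 10 markers of embryonic stem cells were measured. *Pou5f1*, which encodes the pluripotency factor OCT4, had log2 means of 12.55 and 12.72 in WT and *Alkbh1-/-* mESCs, and *Dppa5a*, the brightest of the markers, 14.46 and 14.52. By the adjusted p alone, 4 of the 10 markers were higher and 2 lower, where 7.69% and 8.36% of all named genes were. *Nanog*, a pluripotency factor gene, was called higher, with log2 means of 11.91 and 13.01 (difference 1.10, adjusted p = 0.000591), while *Utf1* and *Lin28a* had differences of -0.49 and -0.56 (adjusted p = 0.0369 and 0.0148), under the fold threshold.

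Most of the glycolytic chain differed by less than 1.5-fold between the genotypes. Of the 36 genes, 3 were called higher in *Alkbh1-/-* mESCs (*Epas1*, *Pdk3* and *Pdha1*) and 2 lower (*Pdk1* and *Eno3*). Over all named genes, 4.45% were called higher, 4.07% lower and 8.52% in either direction. With the adjusted p alone, 6 of the 36 were higher, adding *Slc2a1*, *Pfkp* and *Pgk1*, and 2 were lower, where the shares of all named genes were 7.69% and 8.36%. The comparison with other named genes of like mean value, those at or above the lower quartile of the 36 genes (8.31 on the log2 scale), gave 8.0% called and 17.5% past the adjusted p alone. Those of the 36 genes below that value, *Eno3* among them, have no counterparts in this comparison. Of the 36 genes, 5 were called and 8 passed the adjusted p alone, and no test set these counts against the shares. Their median log2 difference was 0.01 and the median size of the difference 0.16, against -0.03 and 0.15 over all named genes. For 24 of the 36 genes, the whole CI lay within 0.585 of 0, so that a 1.5-fold difference in either direction lay outside the interval. Among these were *Slc16a3* and *Car9*, with mean log2 values of 5.33 and 4.38, under the median of 6.31 over all probe sets. Whether such dim probe sets would register a 1.5-fold difference was not tested.

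**Figure D1:**
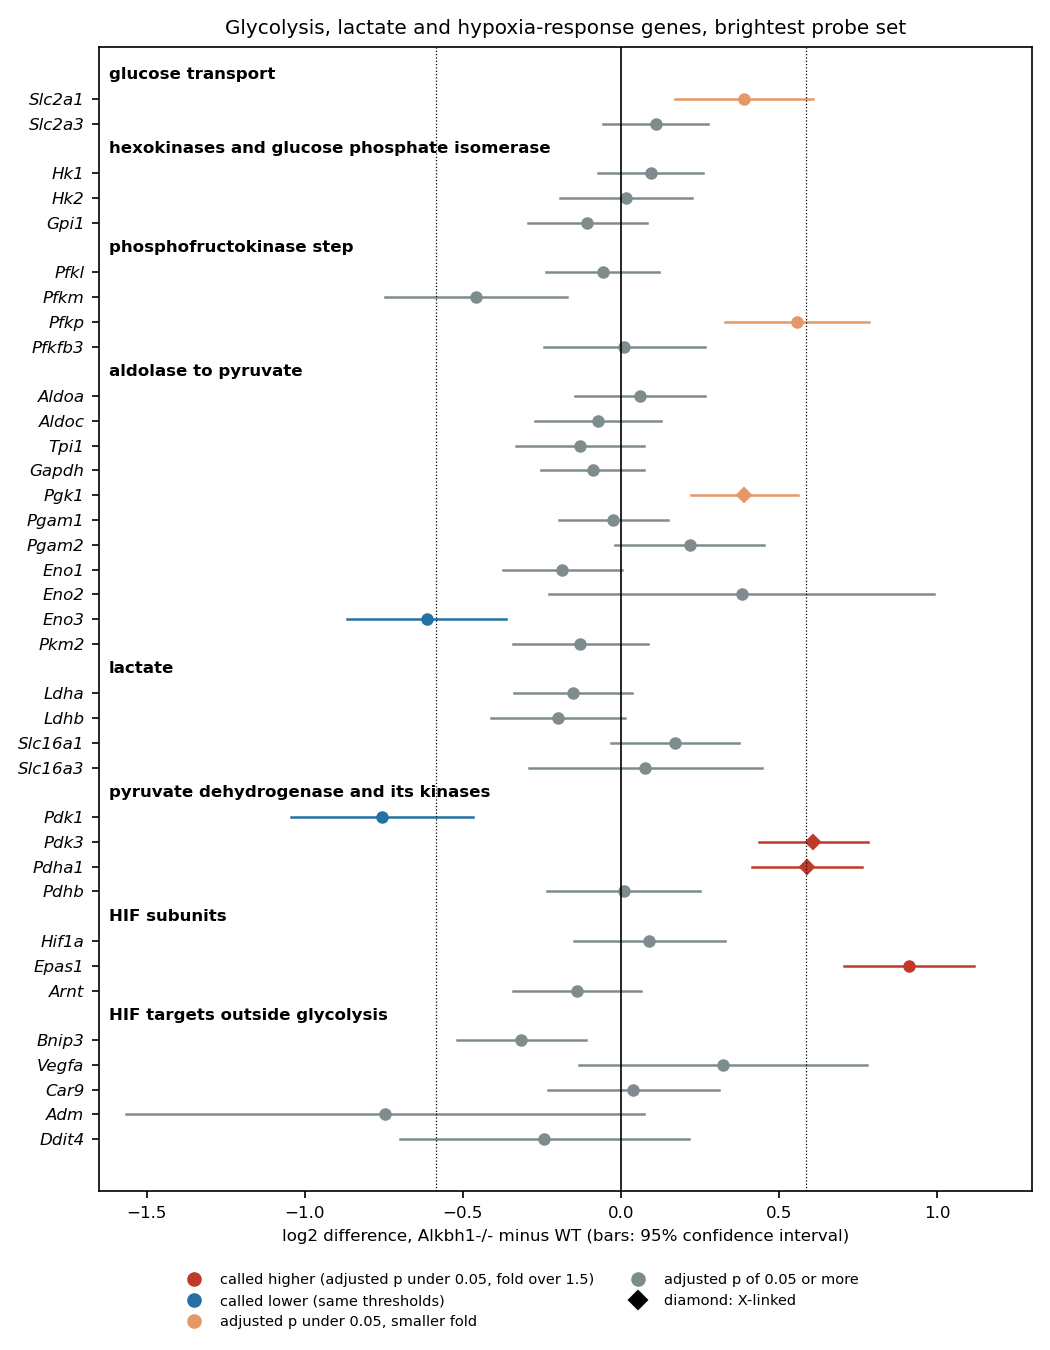
The log2 difference, *Alkbh1-/-* minus WT, of the brightest probe set of each of the 36 genes is shown by role, with bars for the 95% CI from 3 arrays a genotype and dotted lines at a linear fold of 1.5. *Epas1* (0.91) lies farthest right and *Pdk1* (-0.76) and *Adm* (-0.75) farthest left, and the bar of *Adm* crosses 0.

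Glucose uptake genes came first in the order of the pathway. *Slc2a1* encodes GLUT1, the transporter for basal glucose uptake in most cells. Its mean log2 value was 12.13 in WT and 12.52 in *Alkbh1-/-* mESCs, a difference of 0.39 (SE 0.09, CI 0.17 to 0.61, adjusted p = 0.0361). The gene is on chromosome 4, and its other probe sets differed by 0.45 and 0.42 (adjusted p = 0.0126 and 0.0183), so that all 3 were past the adjusted p and none reached the 1.5-fold threshold. Student's test on the variances of the single probe sets gave the brightest probe set of *Slc2a1* an adjusted p of 0.0839. *Slc2a3* encodes GLUT3, a transporter of high affinity. Its probe sets did not give one answer: the brightest, with log2 means of 13.49 and 13.60, differed by 0.11 (adjusted p = 0.381), the next by 0.13 (adjusted p = 0.306), and the remaining 2 by 0.44 (adjusted p = 0.0765) and 0.48 (adjusted p = 0.0141).

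The hexokinases, which trap glucose in the cell as glucose-6-phosphate, were not called. *Hk1* had log2 means of 13.70 in WT and 13.80 in *Alkbh1-/-* mESCs, and *Hk2* of 11.80 and 11.82 (adjusted p = 0.455 and 0.939). The *Hk1* values come from a probe set matched to the gene by symbol alone. The other *Hk1* probe sets, matched by gene identifier, had mean log2 values of 8.71 and 5.17 over all arrays. *Gpi1*, which encodes the isomerase to fructose-6-phosphate, had a log2 difference of -0.11 (adjusted p = 0.465).

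At the phosphofructokinase step, the committed step of glycolysis, none of the 4 genes was called, and no test was made between the isoforms. *Pfkp*, the platelet-type isoform, rose from a log2 mean of 10.16 to 10.72, a difference of 0.56 (SE 0.10, CI 0.33 to 0.78, adjusted p = 0.0105). Its linear fold of 1.47 lay just under the threshold, and its other probe sets differed by 0.75 and 0.57 (adjusted p = 0.0410 and 0.0252). *Pfkm*, the muscle-type isoform, had log2 means of 8.80 in WT and 8.34 in *Alkbh1-/-* mESCs. That difference, -0.46 (SE 0.12, CI -0.75 to -0.17), had an adjusted p of 0.0525, the lowest among the 36 genes not below 0.05. *Pfkl*, the liver-type isoform, had a log2 difference of -0.06 (adjusted p = 0.692). *Pfkfb3* makes and degrades fructose-2,6-bisphosphate, the activator of phosphofructokinase, and its log2 difference was 0.01 (adjusted p = 0.970).

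From aldolase to pyruvate, 9 of 11 genes had an adjusted p of 0.05 or more. Of the rest, 1 was higher and 1 lower, where 7.69% and 8.36% of all named genes passed the adjusted p in these directions. The aldolase genes *Aldoa* and *Aldoc* had log2 differences of 0.06 and -0.07, and *Tpi1*, which encodes triosephosphate isomerase, one of -0.13. *Gapdh*, often used as a reference gene, had log2 means of 14.02 in WT and 13.93 in *Alkbh1-/-* mESCs, and the CI of its difference ran from -0.25 to 0.07. The phosphoglycerate mutase genes *Pgam1* and *Pgam2* had differences of -0.02 and 0.22 (adjusted p = 0.883 and 0.217). *Pkm2*, as the array annotation calls the muscle pyruvate kinase gene, had a difference of -0.13 (adjusted p = 0.426).

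*Pgk1* and *Eno3* were the genes of this stretch that passed the adjusted p. *Pgk1* encodes phosphoglycerate kinase, the first ATP-yielding enzyme of the pathway, and lies on the X chromosome. It rose from a log2 mean of 13.25 in WT to 13.65 in *Alkbh1-/-* mESCs, a difference of 0.39 (SE 0.07, CI 0.22 to 0.56, adjusted p = 0.0138) and a linear fold of 1.31. Its other probe sets, at 0.38 and 0.41, also passed the adjusted p.

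Of the enolase genes, *Eno3* was called, and no test was made between the isoforms. *Eno1*, the general form, had log2 means of 13.92 and 13.73 (difference -0.18, CI -0.37 to 0.00, adjusted p = 0.190). *Eno2*, the neuronal form, had log2 means of 4.91 and 5.29, and the SE of its difference, 0.26, was among the widest of the 36 genes. *Eno3*, the muscle form, on chromosome 11 and with a single probe set, fell from a log2 mean of 7.80 in WT to 7.19 in *Alkbh1-/-* mESCs. The difference was -0.61 (SE 0.11, CI -0.87 to -0.36, adjusted p = 0.0109), and its fold of 1.53 lay close to the threshold. Student's test without the shared spread gave *Eno3* an adjusted p of 0.0582, which ends the call.

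For the lactate branch, no gene passed the adjusted p. *Ldha* encodes the subunit of lactate dehydrogenase that prevails where lactate is made, and it had log2 means of 13.20 in WT and 13.05 in *Alkbh1-/-* mESCs (difference -0.15, SE 0.08, CI -0.34 to 0.04, adjusted p = 0.277). *Ldhb*, the heart-type subunit, had log2 means of 11.07 and 10.87, and its 4 probe sets differed by between -0.21 and -0.19, with adjusted p-values of 0.209 to 0.297. The lactate transporter genes *Slc16a1* (MCT1) and *Slc16a3* (MCT4) had log2 differences of 0.17 (adjusted p = 0.262) and 0.08 (adjusted p = 0.811). The CIs of *Ldha*, *Ldhb* and both transporter genes lay within 0.585 of 0. *Slc16a3* was dim, with a mean log2 value of 5.33 over all arrays, under the median of 6.31 over all probe sets.

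Genes of pyruvate dehydrogenase and its kinases differed in opposite directions, with a median size of the log2 difference of 0.60, the largest among the 8 role groups of the 36 genes. That median rests on the X-linked genes *Pdk3* and *Pdha1*. *Pdk1* encodes pyruvate dehydrogenase kinase 1, a known HIF target. It fell from a log2 mean of 10.86 in WT to 10.11 in *Alkbh1-/-* mESCs, a difference of -0.76 (SE 0.12, CI -1.04 to -0.47, adjusted p = 0.00785) and a fold of 1.69. With Student's test on the variances of the single probe sets, *Pdk1* had an adjusted p of 0.0575, which ends the call. *Pdk1*, on chromosome 2, has 4 probe sets, all with a lower mean in *Alkbh1-/-* mESCs: after the brightest, 1423748_at differed by -1.01 (adjusted p = 0.000826), 1435836_at by -0.37 (adjusted p = 0.103) and 1434974_at by -1.76 (adjusted p = 0.0136), the last with a mean log2 value of 5.09 over all arrays.

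*Pdk3*, a sister kinase gene, went the other way. Its log2 mean was 9.14 in WT and 9.75 in *Alkbh1-/-* mESCs, a difference of 0.61 (SE 0.07, CI 0.44 to 0.78, adjusted p = 0.00238). *Pdha1* encodes the catalytic alpha subunit of pyruvate dehydrogenase that the kinases phosphorylate. It rose from 11.85 to 12.44, a difference of 0.59 (SE 0.07, CI 0.42 to 0.76, adjusted p = 0.00280), with 0.68 at its other probe set (adjusted p = 0.00458). The linear folds, 1.52 for *Pdk3* and slightly less for *Pdha1*, lay just above the threshold. *Pdhb*, the beta subunit of the same enzyme, had log2 means of 6.54 and 6.55 (adjusted p = 0.973). Its single probe set was matched to the gene by symbol alone. The mean over all arrays was 6.55 there, against 12.14 at the brightest probe set of *Pdha1*.

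**Figure D2:**
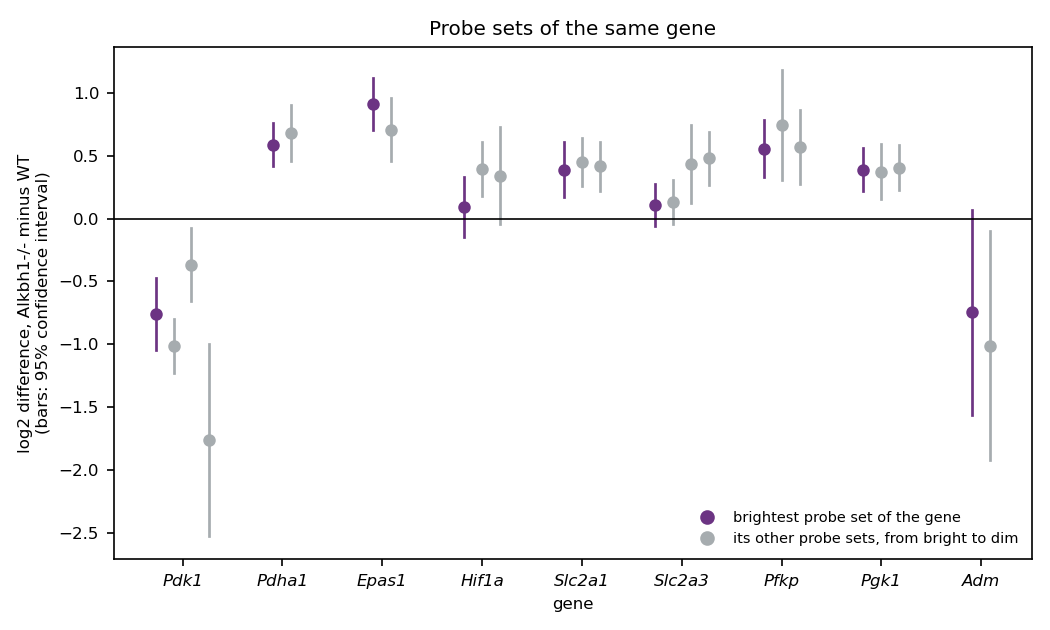
Every probe set of 9 genes that have more than one is shown by its log2 difference, *Alkbh1-/-* minus WT, with bars for the 95% CI, the brightest in purple and the others in grey from bright to dim. All 4 probe sets of *Pdk1* lie below 0 and all 3 of *Slc2a1*, *Pfkp* and *Pgk1* above it, while *Pdk1*, *Hif1a* and *Slc2a3* hold probe sets on both sides of the adjusted p threshold.

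The same differences can be read as linear intensities from the deposited class comparison, which holds an entry for 7 of the 36 genes and gives the geometric mean of each genotype from the same arrays. *Epas1* had a geometric mean intensity of 440 in WT and 827 in *Alkbh1-/-* mESCs. *Pdk3* had one of 564 and 859, and *Pdha1* of 3685 and 5542. Intensities were lower in *Alkbh1-/-* mESCs for *Pdk1*, with 1861 and 1102, and for *Eno3*, with 223 and 146. The other entries were *Pfkp*, with 1145 and 1685, and *Pfkm*, with 444 and 323.

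Probe sets of one gene mostly pointed the same way. Of the 36 genes, 21 had several probe sets, and in 18 of these all lay on one side of 0. *Aldoa* had 4, with log2 differences between 0.04 and 0.10, and *Hk1* had 3, between 0.04 and 0.15. The 3 probe sets of *Pfkl* lay between -0.12 and -0.06, and the 3 of *Gpi1* between -0.11 and -0.05. The genes with probe sets on both sides of 0 were *Arnt*, *Eno1* and *Pfkfb3*. For *Eno1*, the pair of probe sets with the higher means, at 13.82 and 13.65 over all arrays, differed by -0.18 and -0.17, and the pair with means of 4.44 and 4.41 by -0.18 and 0.03.

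*Pdk3*, *Pdha1* and *Pgk1* are X-linked, and X-linked genes as a whole were higher in *Alkbh1-/-* mESCs. Among 220 other X-linked genes of like mean value, 58.6% were called higher and 77.3% were higher by the adjusted p alone. The median log2 difference of these X-linked genes was 0.66, with quartiles of 0.41 and 0.89, against a median of -0.03 and quartiles of -0.16 and 0.11 for 5345 other autosomal genes of like mean value. Within the X-linked genes, *Pgk1* stood above 23.2% of the others, *Pdha1* above 41.8% and *Pdk3* above 45.9%, so that none of the 3 lay above the X-linked median. With the X- and Y-linked genes left out, 3 of the remaining 33 genes were called, *Epas1* higher and *Pdk1* and *Eno3* lower. Of the other autosomal genes of like mean value, 5.84% were called in either direction. That set starts at a mean log2 value of 8.31, and *Eno3*, at 7.50, lies below it. The part of the X chromosome in the differences of *Pdk3*, *Pdha1* and *Pgk1* cannot be told apart from genotype if each genotype was a single line, as the array names point to.

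**Figure D3:**
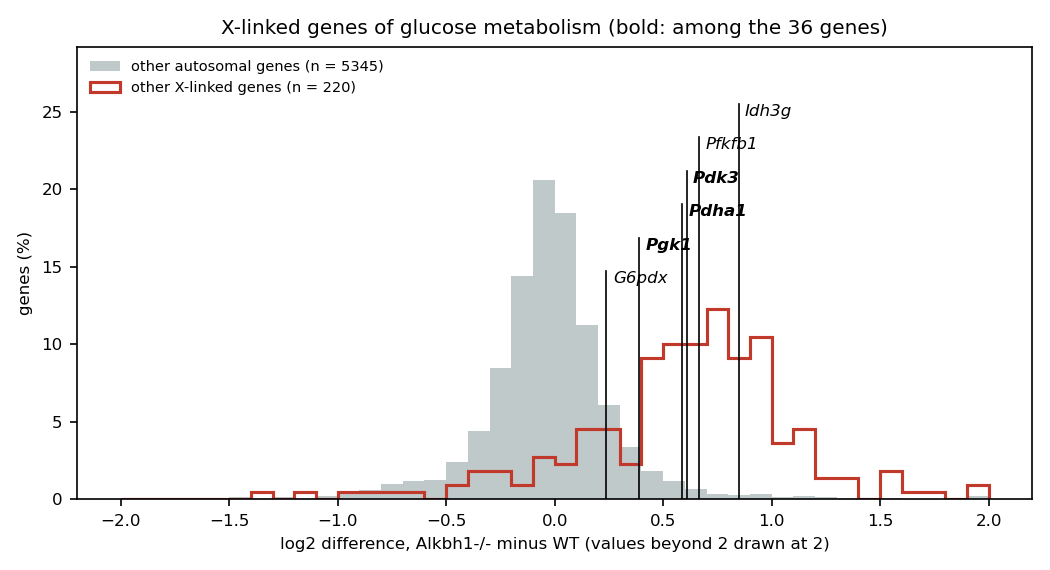
Histograms of the log2 difference, *Alkbh1-/-* minus WT, of named genes with a mean log2 value of at least 8.31 are shown as percent of genes for the X chromosome (red line, 220 genes) and the autosomes (grey, 5345 genes), and vertical lines mark the X-linked genes of glucose metabolism. *Pgk1*, *Pdha1* and *Pdk3* lie inside the red distribution, below its median of 0.66.

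Among the HIF subunits, *Epas1* was the one called, with the largest difference of the 36 genes at their brightest probe sets. By the mean over all probe sets of a gene, *Pdk1* (-0.97) and *Adm* (-0.88) were larger in size than *Epas1* (0.81). *Epas1*, on chromosome 17, encodes HIF-2alpha. Its log2 mean was 8.78 in WT and 9.69 in *Alkbh1-/-* mESCs, a difference of 0.91 (SE 0.09, CI 0.71 to 1.12, adjusted p = 0.00103) and a fold of 1.88, and its other probe set differed by 0.71 (adjusted p = 0.00589). *Hif1a*, on chromosome 12 like *Alkbh1*, encodes HIF-1alpha. Its brightest probe set had log2 means of 11.08 and 11.17 (difference 0.09, CI -0.15 to 0.33, adjusted p = 0.637), and at the other probe sets the differences were 0.40 (adjusted p = 0.0331) and 0.34 (adjusted p = 0.237). *Arnt*, the shared partner subunit, had a difference of -0.14 (adjusted p = 0.363), and its 5 probe sets lay between -0.14 and 0.14.

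The 5 HIF targets outside glycolysis were not called. *Bnip3*, a mitochondrial protein gene of mitophagy, had log2 means of 10.78 in WT and 10.46 in *Alkbh1-/-* mESCs (difference -0.31, SE 0.09, CI -0.52 to -0.11, adjusted p = 0.0584). *Vegfa*, the angiogenic growth factor gene, had a difference of 0.32 and *Ddit4*, whose product restrains mTORC1, one of -0.24 (adjusted p = 0.343 and 0.490). *Car9*, which encodes a carbonic anhydrase of the cell surface, had log2 means of 4.36 and 4.39. *Adm*, the gene of the peptide hormone adrenomedullin, had log2 means of 6.96 and 6.21, but its SE was 0.35 and its CI ran from -1.57 to 0.07 (adjusted p = 0.225). Its other probe set differed by -1.01 (CI -1.93 to -0.10, adjusted p = 0.145), and with this spread neither passed the adjusted p.

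*Adm* and *Eno2* were the 2 of the 36 genes with an SE over 0.25, a width that 2.23% of all named genes had and 17 of 25 markers of fibroblasts. The fibroblast markers stand for the feeder cells. Their log2 differences lay below 0 for 24 of 25, with a median of -0.75, and none was called (median SE 0.32). Summed on the linear scale, their level was 32990 in WT and 21490 in *Alkbh1-/-* mESCs, a ratio of 0.651. The brightest was *Fn1*, with log2 means of 12.25 and 11.87, and the dimmest *Twist1*, with 5.56 and 5.22. The markers of embryonic stem cells, summed, gave 54210 and 64340, a ratio of 1.19, in a sum that holds *Nanog*, which rose, and *Utf1* and *Lin28a*, which had lower means. The part of the feeder cells in the differences of *Adm*, *Eno3* and *Pdk1* was not tested.

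**Figure D4:**
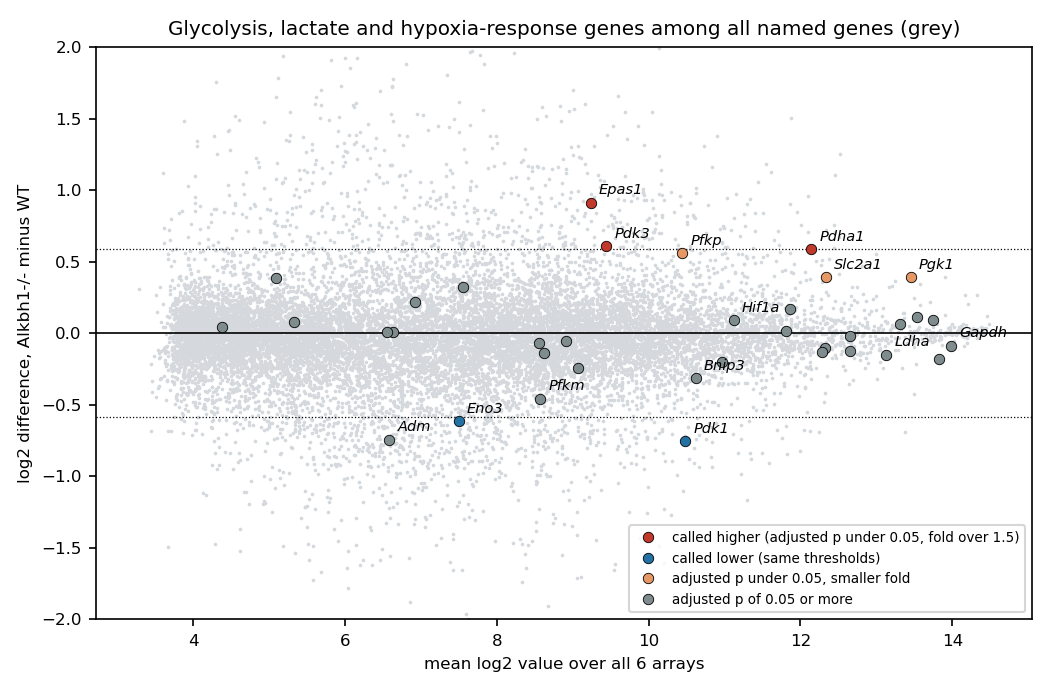
The log2 difference, *Alkbh1-/-* minus WT, is plotted against the mean log2 value over all 6 arrays for the 36 genes (large points) and all named genes with a difference within 2 of 0 (grey), with dotted lines at a linear fold of 1.5. Most of the 36 genes, among them *Gapdh* at -0.09 and *Ldha* at -0.15, lie inside the grey band. Outside the dotted lines lie *Epas1*, *Pdk3* and *Pdha1* above and *Pdk1*, *Adm* and *Eno3* below, with *Pdk3*, *Pdha1* and *Eno3* close to a line.

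Promoter sequences were read for 34 of the 36 genes, from the 250 bases before each RefSeq transcription start on GRCm38.p6. *Epas1* and *Slc2a3* have no entry. HIF is known to bind short sites with the core ACGTG or GCGTG. These letters were searched on both strands, where a palindromic CACGTG holds ACGTG on each. Windows of 3 known HIF targets are printed because they went in different directions: *Pdk1* (chr2:71872974-71873223, plus strand) fell, while *Slc2a1* (chr4:119108495-119108744, plus strand) and *Pgk1* (chrX:106186850-106187099, plus strand) rose. *Slc2a1* and *Pgk1*, each with a linear fold of 1.31, passed the adjusted p but were not called, and *Pgk1* lay below the X-linked median. Each window is written 5′ to 3′ toward the start site, and capitals mark the matches.
*Pdk1*: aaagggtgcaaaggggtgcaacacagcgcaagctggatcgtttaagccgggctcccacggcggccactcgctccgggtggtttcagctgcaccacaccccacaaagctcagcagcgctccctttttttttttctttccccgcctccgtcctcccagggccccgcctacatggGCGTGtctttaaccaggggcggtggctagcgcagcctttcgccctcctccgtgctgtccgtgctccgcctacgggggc
*Slc2a1*: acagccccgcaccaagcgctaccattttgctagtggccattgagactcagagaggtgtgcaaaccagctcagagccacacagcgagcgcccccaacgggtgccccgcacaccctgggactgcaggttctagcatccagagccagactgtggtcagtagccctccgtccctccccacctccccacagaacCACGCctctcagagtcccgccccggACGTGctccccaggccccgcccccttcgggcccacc
*Pgk1*: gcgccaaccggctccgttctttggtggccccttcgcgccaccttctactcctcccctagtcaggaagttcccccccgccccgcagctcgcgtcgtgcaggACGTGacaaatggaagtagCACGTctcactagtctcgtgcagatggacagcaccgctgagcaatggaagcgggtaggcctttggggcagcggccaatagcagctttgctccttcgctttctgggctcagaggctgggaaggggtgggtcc
*Pdk1* held 1 match in this window and none in its other annotated window, and *Slc2a1* and *Pgk1* held 2 each. A match was present in a window of 30 of the 34 genes, among them *Pdk3*, *Pdha1* and *Eno3*, and the genes without one were *Eno2*, *Gpi1*, *Pgam2* and *Tpi1*. By window, 38 of 48 (79.2%) held a match, against 52.4% of the windows of all named genes and 38.6% of all 32851 windows. CACGTG was in 12.5% of the windows of these genes and in 7.95% of those of all named genes. These shares describe letters in a window and were not matched for base composition, and genes of either direction held matches.

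Other genes of the same processes were taken as 8 further lists, from isoforms of the glycolytic enzymes to gluconeogenesis. Of their 101 measured genes, 5 were called higher and 4 lower, and 10 and 7 passed the adjusted p alone. Over all named genes the shares were 4.45% and 4.07%, and 7.69% and 8.36% by the adjusted p alone. The median log2 difference of the 101 genes was -0.02.

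Among 19 other glycolysis genes, *Pfkfb1*, an isoform gene of the bifunctional phosphofructokinase regulator, was the one called. It is X-linked and rose from a log2 mean of 7.24 to 7.90 (difference 0.66, adjusted p = 0.00310). Among 7 other genes of lactate and pyruvate handling, *Emb*, which encodes embigin, a membrane partner of monocarboxylate transporters, fell from 11.54 in WT to 9.96 in *Alkbh1-/-* mESCs. That difference of -1.58 (SE 0.11, CI -1.83 to -1.33, adjusted p = 0.000294) was the largest in size over the 36 genes and the 8 further lists, and its other probe set differed by -1.63. *Bsg*, the gene of basigin, the other such partner, had a difference of 0.14 (adjusted p = 0.370). *Mpc1* and *Mpc2*, the subunit genes of the mitochondrial pyruvate carrier, had differences of 0.41 and 0.49 (adjusted p = 0.0309 and 0.0120), under the fold threshold.

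Among 8 further genes of the pyruvate dehydrogenase complex and of pyruvate use, *Pcx* was called higher. It encodes pyruvate carboxylase, which feeds oxaloacetate to the citric acid cycle, and its log2 means were 6.83 and 7.44 (difference 0.61, adjusted p = 0.00801). Its other 4 probe sets differed by 0.01 to 0.47, and the mean over all 5 was 0.30, under the fold threshold, which ends the call. *Pdk4*, the remaining kinase gene, had a difference of 0.36 with an SE of 0.24 (adjusted p = 0.389).

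Of 15 HIF regulators and partners, 3 passed the adjusted p alone, each higher in *Alkbh1-/-* mESCs, where 7.69% of all named genes were higher and 8.36% lower. The prolyl hydroxylase genes *Egln1*, *Egln2* and *Egln3*, whose products mark HIF alpha subunits for decay, had log2 differences of 0.14, -0.01 and 0.08 (adjusted p = 0.425, 0.955 and 0.719). For *Egln3*, the mean over its 3 probe sets was -0.23, on the other side of 0. *Cited2*, whose product competes with HIF for the coactivator p300, was the one called, at 0.60 (SE 0.16, CI 0.23 to 0.98), with an adjusted p of 0.0499 at the edge of the threshold and a difference of 0.50 at its other probe set. *Vhl*, the ubiquitin ligase subunit that recognises hydroxylated HIF, and *Siah2*, a ligase gene acting on the prolyl hydroxylases, had differences of 0.47 and 0.58 (adjusted p = 0.0358 and 0.00524), under the fold threshold.

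Of 25 other hypoxia targets, 2 were called, both lower, and 16 had a difference below 0 and 9 above, with a median of -0.15. Over all named genes, 4.07% were called lower and 8.52% in either direction, and 8484 of 15364 had a difference below 0. *Fam162a*, a mitochondrial protein gene induced by HIF, fell from a log2 mean of 11.21 in WT to 10.45 in *Alkbh1-/-* mESCs (difference -0.76, SE 0.10, adjusted p = 0.00358). Its other probe set differed by -0.50 (adjusted p = 0.141). *Ankrd37*, an ankyrin repeat gene, fell from 6.97 to 6.32 (difference -0.65, SE 0.10, adjusted p = 0.00722). *Lox*, a gene that fibroblasts also express, had a difference of -0.94 with an SE of 0.35 (adjusted p = 0.136), and the part of the feeder cells in it was not tested. The well known targets *P4ha1*, *Kdm3a*, *Ndrg1* and *Ero1l* had differences of -0.01, 0.21, 0.40 and -0.16, none past the adjusted p. By the adjusted p alone, 3 of the 25 genes passed, each lower, the called pair and *Plod1*, a lysyl hydroxylase gene (difference -0.55, adjusted p = 0.0182). At that threshold, 8.36% of all named genes were lower and 7.69% higher. For *Plod1*, the mean over its 2 probe sets was -0.37.

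**Figure D5:**
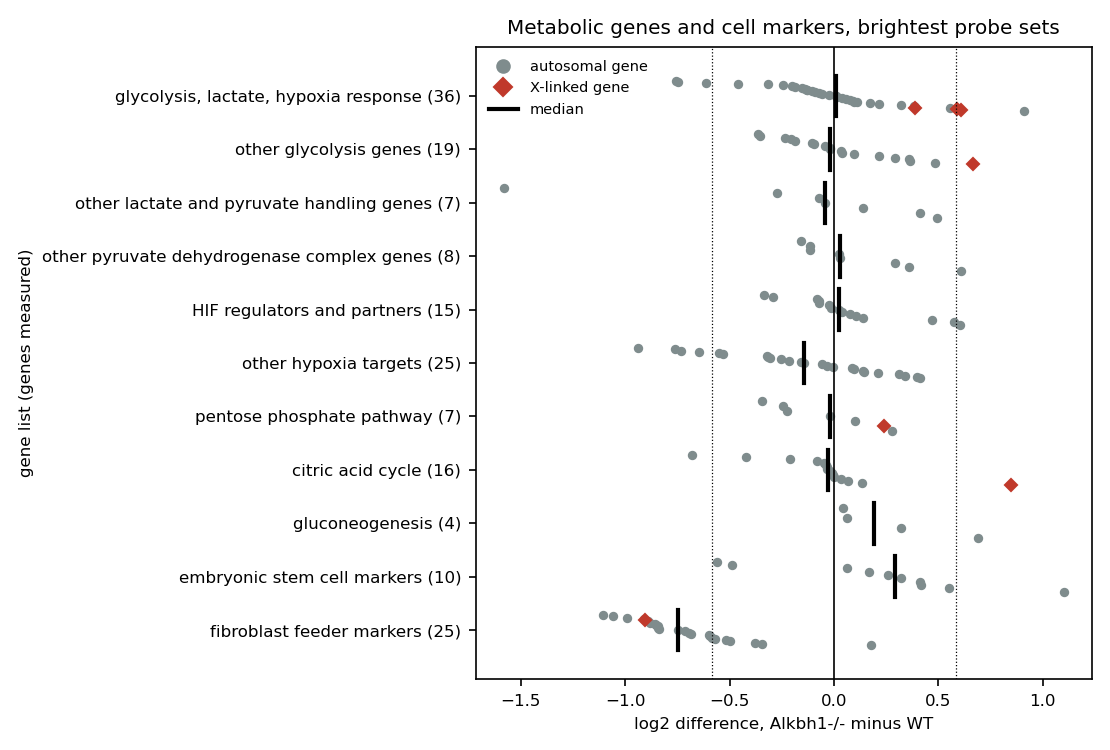
Each point is a gene, placed by the log2 difference, *Alkbh1-/-* minus WT, of its brightest probe set, in the lists named at the left with the number of genes measured, and a black bar marks the median of the list. The medians of the metabolic lists lie between -0.15 and 0.19, the X-linked genes (red) of the metabolic lists lie above 0, and the fibroblast markers lie below 0 except for *Sparc*.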

How the data were processed

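RNA of WT and *Alkbh1-/-* mESCs was hybridised to 3 arrays a genotype, and all arrays were normalized by the authors in one run of the robust multi-array algorithm. The log2 values deposited are the genotype difference and the mean over all arrays of 33142 probe sets. The deposited score is limma's moderated statistic, whose sign was opposite to that of the difference in all 33142. Its p-value and an adjusted p-value were deposited with it. A class comparison, also deposited, gives geometric mean intensity by class. It lists 4326 entries, of which 4261 matched the larger table by value (within 0.0001) but 8 by identifier, so its values were joined by value. The direction came from its class means. The heading of the WT class did not match the name of the WT arrays, and the deposited description settled which class was WT.

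These tables hold the authors' own comparison, and the test planned on arrays was realised through them. The SE was the difference over the statistic. The total degrees of freedom, 7.14 (4 residual, 3.14 prior), and the prior variance, 0.0160, were recovered with limma's empirical Bayes step, and p-values, intervals and adjustments were recomputed. The adjusted p-values deviated from those deposited by at most 1.21e-07. The recovery was tested on simulated data. Whole tables were adjusted, and 28216 probe sets (85.1%) were named through RefSeq genes of GRCm38.p6. The array number limits the precision of each value. Probe sets with s or x in their suffix can also match related transcripts, which matters for *Gapdh*, *Pgk1* and other genes with close copies. R 4.3.3, limma 3.58.1, Python 3.11.15, pandas 2.3.3, NumPy 2.4.6 and matplotlib 3.10.9 were used.

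The 37 genes and all lists were chosen with earlier results of these data known. By rule, the text names the targeted gene, the 37 genes, the called genes of the further lists, and the brightest and dimmest fibroblast marker. The genes *Bsg*, *Mpc1*, *Mpc2*, *Pdk4*, *Egln1*, *Egln2*, *Egln3*, *Vhl*, *Siah2*, *Lox*, *P4ha1*, *Kdm3a*, *Ndrg1*, *Ero1l*, *Plod1*, *Sparc*, *Pou5f1*, *Dppa5a*, *Nanog*, *Utf1*, *Lin28a*, *Sdhc*, *Pgls*, *G6pdx*, *Pgm2* and *Actb* were named after their values were seen.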

Additional observations from a re-analysis of the deposited data

How the results depend on the processing

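Of the 36 genes, 5 were called. With the adjusted p alone there were 8, without X- and Y-linked genes 3, with Student's test applied to the recovered variances 3 (*Pdk1* and *Eno3* were lost, *Slc2a1* no longer passed the adjusted p and *Gapdh* did), and with a log2 difference over 1.5 in size 0. With limma's treat against 1.5-fold there were also 0, where an unadjusted p under 0.05 with the same fold gave 5. A trended prior variance, one probe set a gene, bright probe sets and centring on the median of all probe sets gave 5, and the mean of all probe sets of a gene gave 6. *Pfkm* and *Bnip3* passed the adjusted p with the trend, with one probe set a gene and with bright probe sets, and *Slc2a3* and *Eno1* with the trend. None of the genes past the adjusted p changed direction, and *Pfkfb3* went from 0.01 to -0.09 with the mean of its probe sets. In the 8 further lists, 9 were called, 17 with the adjusted p alone, 1 with a log2 difference over 1.5, 1 with treat, 7 with Student's test and 6 (2 higher, 4 lower) without X- and Y-linked genes. The mean of all probe sets of a gene gave 8 in these lists. Those alternatives, and the ones run on *Alkbh1*, were chosen after seeing the data. The causes were not tested beyond the stricter thresholds themselves and the genes left out. The median difference of the 36 genes ran from -0.02 to 0.02. No paired analysis was possible because the tables hold no values of single arrays, and leaving out each replicate was not run for the same reason. *Pdha1*, *Pdk3*, *Eno3* and *Pfkp* lie within 0.05 of the fold threshold on the log2 scale, and *Adm* and *Eno2* are limited by the spread between arrays.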

Other observations

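In the citric acid cycle, which oxidises the acetyl-CoA made by pyruvate dehydrogenase, 12 of 16 genes had a log2 difference below 0, with a median of -0.03 and a median size of 0.04, and 2 genes were called in opposite directions. Over all named genes, 8484 of 15364 lay below 0, the median was -0.03 and 8.52% were called. *Idh3g*, an X-linked subunit gene of isocitrate dehydrogenase, rose from a log2 mean of 11.52 in WT to 12.37 in *Alkbh1-/-* mESCs (difference 0.85, adjusted p = 0.000764 from limma's moderated test), above 72.3% of the other X-linked genes of like mean value. *Suclg2*, the gene of the GTP-forming subunit of succinyl-CoA ligase, fell from 10.30 to 9.61 (difference -0.68, adjusted p = 0.00172), with -0.71 at its other probe set. *Sdhc*, a subunit gene of succinate dehydrogenase, had a difference of -0.42 (adjusted p = 0.0377), under the fold threshold, and the mean over its 2 probe sets was -0.22.

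None of the 7 measured genes of the pentose phosphate pathway was called by limma's moderated test. *Pgls*, the gene of its lactonase, had a log2 difference of -0.35 (adjusted p = 0.0201). *G6pdx*, the X-linked gene of its first enzyme, had a difference of 0.24 (adjusted p = 0.0938), above 19.1% of the other X-linked genes of like mean value. In gluconeogenesis, 1 of 4 measured genes was called, *Fbp2*, a fructose bisphosphatase gene, with log2 means of 4.91 and 5.60 (difference 0.69, adjusted p = 0.0133), both under the median of 6.31 over all probe sets. Over all named genes, 4.45% were called higher. *Pgm2*, a phosphoglucomutase gene, had a difference of 0.48 (adjusted p = 0.0133).

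Over the 36 genes and the 8 further lists, all 6 X-linked genes had a log2 difference above 0 (median 0.60), and of 131 autosomal genes 58 lay above 0 and 73 below (median -0.02). The control probe sets of *Gapdh* along its transcript differed by -0.04 at the 5′ end, -0.09 in the middle and -0.07 at the 3′ end, and those of *Actb* by -0.18, -0.15 and -0.09. None of these passed the adjusted p.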
